A study of Homo sapiens with 8 samples.

Results

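The mock channels of 2 human cancer cell lines were compared: FaDu, a hypopharyngeal squamous cell carcinoma line, and PANC-1, a line from a pancreatic cancer that is commonly described as ductal. The members were the 2 FaDu and the 2 PANC-1 mock channels, 4 of the 8 mock channels of the series, and they were taken by their cell line labels. The other 4 mock channels came from PC3 prostate cancer cells. Each mock RNA was labelled with Cy3 and shared an array with Cy5-labelled RNA of the same line after transfection, of miR-99a-5p or miR-99a-3p in FaDu and of si-FOXQ1-1 or si-FOXQ1-2 in PANC-1. The mock cells are labelled as having had no transfection, and the labels give either of 2 media, RPMI 1640 or DMEM, without saying which line had which. All 4 arrays were on 1 slide. Each line is a single established line, so a difference between them is one between FaDu and PANC-1 and cannot be told apart from a difference between culture media. As total RNA was hybridised, fewer cells with a transcript and less of it per cell cannot be told apart.

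A squamous epithelium such as that of the pharynx is layered. Its basal cells depend on the transcription factor p63, make the keratin pair KRT5 and KRT14, and hold on to each other through desmosomes and to the basement membrane through hemidesmosomes and laminin-332. Cells that leave the basal layer switch keratins and lay down a cornified envelope. The pancreatic duct is a single layer of endodermal origin with the simple keratins KRT7, KRT8, KRT18 and KRT19, and its identity rests on factors such as SOX9 and GATA6. Carcinoma cells can lose part of an epithelial identity in an epithelial to mesenchymal transition, in which ZEB1, SNAI1 or related repressors silence E-cadherin and vimentin appears.

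The labels were set against marker genes first. All 9 squamous markers (TP63, KRT5, KRT14, KRT6A, DSG3, PKP1, TRIM29, SERPINB5 and COL17A1) were well above background in both FaDu channels, and none of the 9 was in either PANC-1 channel. Of 8 duct markers, 5 were above background in both channels of PANC-1 and the same number in both channels of FaDu (KRT7, KRT19, SOX9, MUC1 and GATA6), while CFTR, PDX1 and HNF4A were above background in no channel. The 9 squamous markers were thus above background in FaDu only. They were chosen with earlier results of these data known, so they are no independent check of the label. The duct markers did not set PANC-1 apart from FaDu by their presence. Among the mesenchymal markers VIM, ZEB1, CDH2 and FN1, 3 were above background in both PANC-1 channels, VIM and CDH2 were above it in both FaDu channels as well, and FN1 was in no channel. Insulin and somatostatin (INS and SST) and the acinar genes CPA1 and PNLIP were above background in no channel.

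Between 44.5% and 45.9% of the gene spots were well above background in each of the 4 mock channels. Over 278 probes printed on at least 5 spots, the 2 PANC-1 channels differed with a robust SD of 0.0188 on the log2 scale, and the spots of a probe alone would give 0.0188. For the 2 FaDu channels the values were 0.0239 and 0.0202. By comparison, PC3 mock channels from the same row of the slide differed by 0.0183 to 0.0200 and those from different rows by 0.0903 to 0.0948. The 2 mock channels of a line therefore differed by about the noise between spots, the labels do not say that they came from separate cultures, and the p-values below measure error between hybridisations only. FaDu lay in row 1 and PANC-1 in row 2 of the slide, so the row and the line cannot be told apart within these 4 channels. The design was kept as 2 channels against 2, and the calls were also counted with each line counted once, as a single averaged value whose spread was taken from the 2 rows of PC3. That count is given for a gene list where it differed, and was the same for the other lists.

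Of 20346 genes tested, 3844 were called higher in FaDu, which is a background of 18.9%, and 4271 were called higher in PANC-1, a background of 21.0%. A call needed an adjusted p under 0.05 by limma with Benjamini-Hochberg adjustment and a difference of at least 1 on the log2 scale. With each line counted once the calls numbered 3710 and 4203, and 7775 of the 8098 calls that could be compared stayed. The 2 lines had 16506 genes above background in all 4 channels, and there the median log2 difference was 0.04. Another 1376 genes were above background in both FaDu channels and neither PANC-1 channel, and 1533 the reverse. For such genes the dim line gives only a limit, and their differences are written below as "at least" a fold, which sets the bright line against the weakest signal that still counted as above background. All differences are FaDu minus PANC-1 of log2 normalized Cy3 signal, and signals of different genes come from different probes and are not compared with each other.

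**Figure D1:**
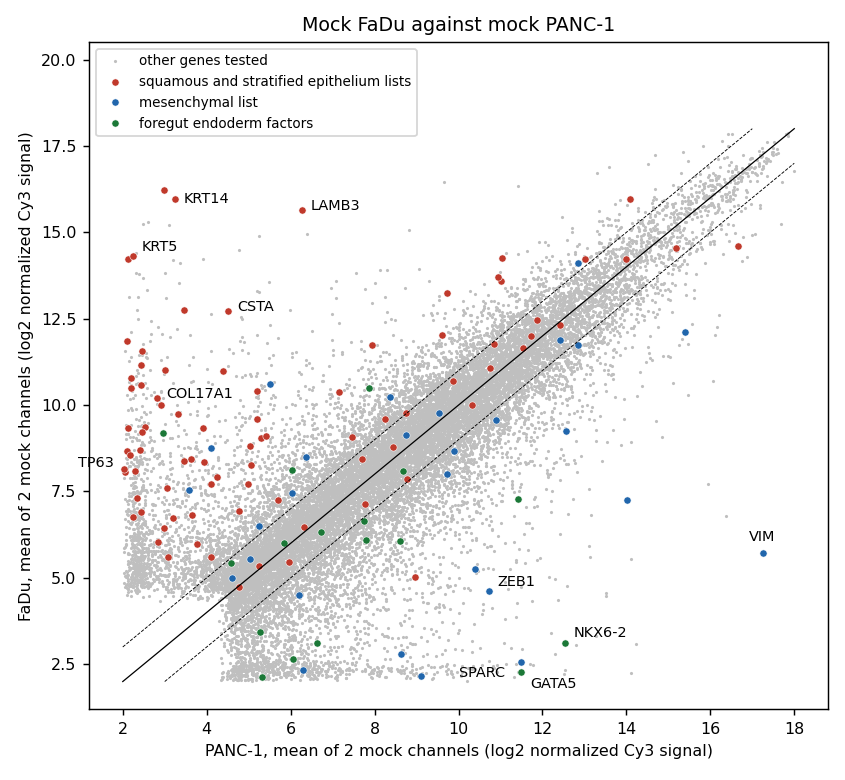
Mean log2 normalized Cy3 signal of the 2 FaDu mock channels (vertical) against that of the 2 PANC-1 mock channels (horizontal) for the 20346 genes tested, with 3 groups of gene lists coloured; the solid line marks equal signal and the dashed lines a log2 difference of 1. Squamous genes such as KRT5 and KRT14 lie at the left edge, where PANC-1 was at background, and VIM, ZEB1, GATA5 and NKX6-2 lie below the diagonal.

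Among genes measured in all 4 channels, vimentin (VIM), the intermediate filament protein of mesenchymal cells, had log2 signals of 5.64 and 5.78 in FaDu and 17.20 and 17.33 in PANC-1, a difference of -11.56 ± 0.064 (SE). It was the widest gap in either direction, 3010-fold. In FaDu the widest gap was that of ANXA8L1, an annexin A8 gene, with log2 signals of 14.92 and 14.86 against 5.18 and 5.32, although annexin A8 has near-identical gene copies that the probe may not separate. The laminin beta 3 chain gene LAMB3, a subunit of laminin-332, came next with log2 signals of 15.57 and 15.70 in FaDu and 6.15 and 6.40 in PANC-1, a 658-fold difference. Other genes higher in FaDu by this rule were the coagulation initiator F3 (8.58 log2 difference), the cornified envelope component CSTA (8.24), the interferon-induced gene IFI27 (8.11), the raft protein gene MAL2 (8.06), the protease inhibitor gene TFPI2 (8.03), TPD52L1 (7.74), carbonic anhydrase 2 (CA2, 7.65), the FGF-binding protein gene FGFBP1 (7.14), COBLL1 (7.11) and the interleukin-33 receptor gene IL1RL1 (7.04). After VIM, the genes higher in PANC-1 were CRIP1 (-9.59), the Notch ligand gene DLL3 (-8.57), the lipid carrier gene APOE (-8.25), the cation channel gene TRPV2 (-7.81), the CD27 ligand gene CD70 (-7.54), SLC35F3 (-7.34), CMTM7 (-7.16), the neural stem cell filament nestin (NES, -7.14), the clock repressor gene BHLHE41 (-6.75), S100A4 (-6.75) and EEPD1 (-6.49).

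Genes at background in one line gave the widest bounds. The 10 largest in FaDu included the keratin genes KRT17, KRT14, KRT5 and KRT6A and the keratin pseudogene KRT42P, the channel-activating protease gene PRSS8, FXYD3, S100A14 and the kallikrein gene KLK6, between at least 781-fold and at least 4120-fold higher. In PANC-1 they were the imprinted long non-coding RNA MEG3, CYB5R2, the kinesin gene KIF1A, the activin subunit gene INHBB, the chemokine gene CCL2, the homeobox gene NKX6-2, LINC01420, the neurotensin receptor gene NTSR1, PLAC8 and the imprinted growth factor gene IGF2, between at least 247-fold and at least 1010-fold higher. Both lists were read from the brightest probe of a gene. MEG3 has 7 probes, of which 5 others had log2 differences from -6.54 to -4.60, and the last gave -0.10, which ends that call when the probe with the smallest difference is taken.

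Among 20 tested transcription factors of squamous epithelium, 17 were called higher in FaDu, 1 was called higher in PANC-1 and 2 were not called. The median log2 difference was 4.31 against 0.02 over all genes tested. Of the 20, 13 were at background in both PANC-1 channels and passed the filter through FaDu alone. Among those above background in all 4 channels the median was 1.56. With each line counted once 17 were again higher in FaDu, and the call in PANC-1, GRHL3, was lost. TP63, which encodes p63, had log2 signals of 8.16 and 7.94 in FaDu and 2.05 and 2.05 in PANC-1, where it was at background, so that it was at least 14.3-fold higher in FaDu. TRIM29, a p63-associated gene of basal keratinocytes, gave 10.77 and 10.82 against 2.18 and 2.19, at least 96.3-fold. BNC1, a zinc finger gene of basal keratinocytes, gave 10.48 and 10.53 against 2.20 and 2.19, at least 78.8-fold. In all of these the PANC-1 channels were at background and the FaDu channels far above it. The same was seen for KLF5 (at least 111-fold), OVOL2 (at least 46-fold), EHF (at least 35.5-fold), OVOL1 (at least 34.8-fold), GRHL2 (at least 22.2-fold), SOX15 (at least 18.8-fold), ZNF750 (at least 5.81-fold), FOXE1 (at least 3.58-fold) and SOX2 (at least 3.44-fold). ELF3 (3.80), PAX9 (3.78), GRHL1 (1.61) and TFAP2C (1.56) were measured in both lines and were higher in FaDu by these log2 differences. The exception was GRHL3, a grainyhead factor of the epidermal barrier, with log2 signals of 5.05 and 5.02 in FaDu and 8.999 and 8.91 in PANC-1. That value came from 1 of its probes, and its other probe was above background in no channel. PITX1 and TFAP2A differed by 0.29 and -0.65 and were not called.

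Of 15 tested keratins of stratified epithelia, 10 were called higher in FaDu and 5 were not called, with a median log2 difference of 3.68, which was 0.20 among the keratins above background in all 4 channels. The number higher in FaDu was 9 with each line counted once. KRT5 had log2 signals of 14.26 and 14.37 in FaDu and 2.25 and 2.24 in PANC-1, at least 1100-fold higher in FaDu. Its basal partner KRT14 had 15.90 and 16.02 against 3.07 and 3.40, at least 3450-fold. The stress and wound keratin gene KRT17 had 16.15 and 16.29 against 3.51 and 2.46, at least 4120-fold. In these 3 genes no PANC-1 channel rose above background. KRT6A (at least 1030-fold), KRT6C (at least 163-fold), KRT16 (at least 34.8-fold) and KRT6B (at least 5.92-fold) behaved alike, but the KRT6 genes, and likewise KRT14, KRT16, KRT17 and the pseudogene KRT42P, are close in sequence and a probe may read more than 1 of them. Keratins of the upper layers of non-cornified epithelium were higher in FaDu too, KRT4 by at least 12-fold and KRT13, which was above background in PANC-1 as well, by 2.74 on the log2 scale. KRT15 (0.91), KRT10 (0.25), KRT3 (0.15), KRT80 (0.13) and KRT78 (-0.50) were measured in both lines and were not called. KRT1 and KRT2, keratins of cornifying epidermis, were above the filter in neither line.

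Of 29 tested genes of the cornified envelope and keratinocyte differentiation, 23 were called higher in FaDu and 6 were not called, and the median log2 difference was 3.61. Among those above background in all 4 channels the median was 1.19, and with each line counted once 20 of the 29 were higher in FaDu. SERPINB5, which encodes the serpin maspin, had log2 signals of 11.85 and 11.87 in FaDu and 2.11 and 2.10 in PANC-1, at least 201-fold higher in FaDu. KLK5, a kallikrein that starts the protease cascade of the shedding skin surface, had 12.75 and 12.75 against 3.28 and 3.62, at least 372-fold. CSTA, measured in all 4 channels, had 12.72 and 12.75 against 4.52 and 4.49. These were the 3 widest gaps of the list, each with no overlap between the lines. Further proteases and their inhibitor, KLK8 (at least 83.1-fold), KLK13 (at least 20.2-fold), KLK11 (at least 8.63-fold) and SPINK5 (at least 22.7-fold), and the crosslinking enzyme gene TGM1 (4.40) were higher in FaDu too. Small proline-rich precursors were unequal at their brightest probes. There SPRR2A was at least 15.4-fold higher in FaDu, SPRR1A differed by 1.03 on the log2 scale, and SPRR2D differed by 0.74 and was not called. The other probes of SPRR1A and SPRR2D were at background in PANC-1, with differences of 3.5 and 5.14. The envelope plakin genes were apart by 2.42 for PPL and by 0.81 for EVPL, the latter without a call. IVL, LOR and FLG, which encode the late envelope proteins involucrin, loricrin and filaggrin, were among 17 genes of this list that passed the filter in neither line.

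**Figure D2:**
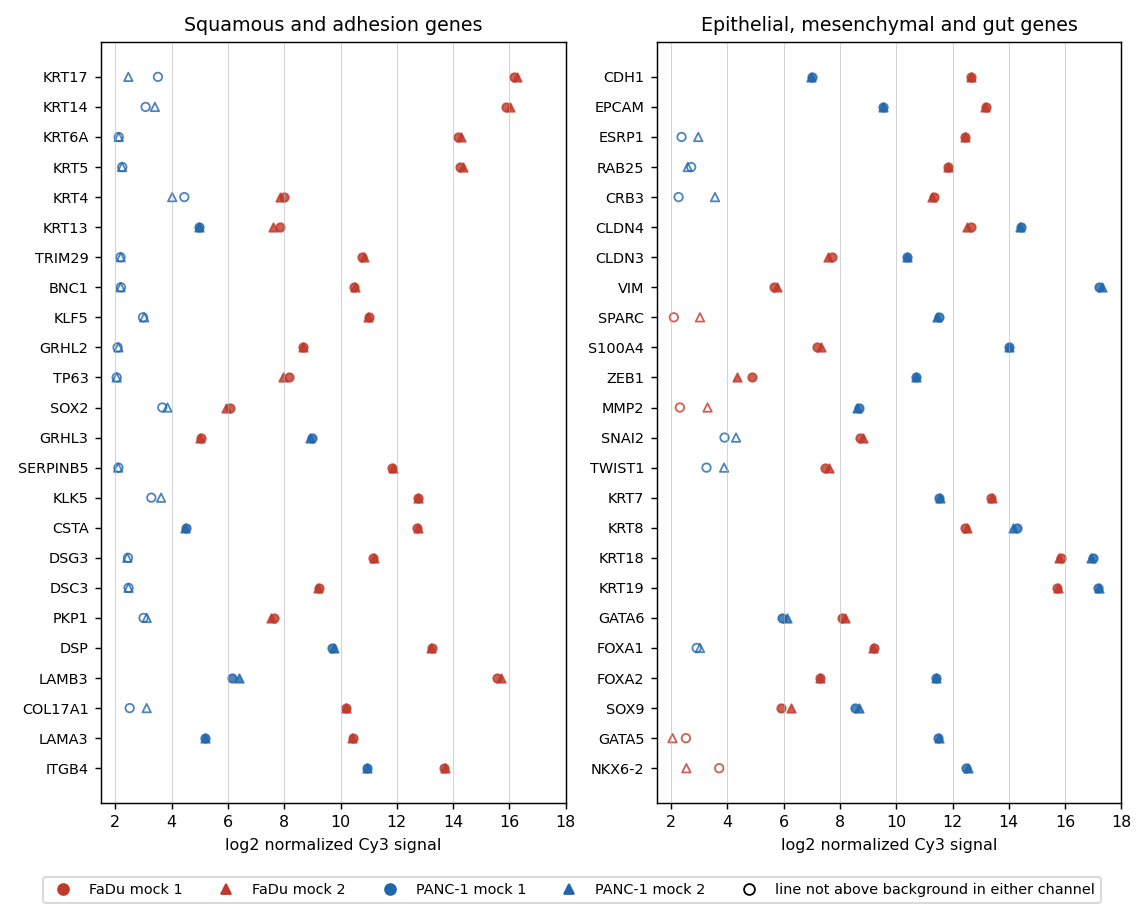
Log2 normalized Cy3 signal of 48 genes in each of the 2 FaDu mock channels (red) and 2 PANC-1 mock channels (blue), with open symbols where neither channel of that line was above background. Squamous and adhesion genes on the left sit high in FaDu and mostly at background in PANC-1, GRHL3 excepted, and on the right the mesenchymal genes VIM, SPARC, S100A4, ZEB1 and MMP2 sit high in PANC-1 while SNAI2 and TWIST1 sit high in FaDu.

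Desmosomes, the plaques that rivet keratinocytes together, showed the same direction in 9 of 10 tested genes, and the tenth, PERP (-0.63), was not called. The median log2 difference was 3.61. The cadherin gene DSG3 had log2 signals of 11.15 and 11.20 in FaDu and 2.45 and 2.42 in PANC-1, at least 125-fold higher in FaDu. DSC3, its partner in the basal layers, gave 9.25 and 9.22 against 2.47 and 2.47, at least 32.6-fold. Neither cadherin rose above background in PANC-1. The plakophilin genes PKP2 and PKP1 were at least 96.7-fold and 10.4-fold higher. The other called parts of the desmosome were above background in both lines, with differences of DSG2 3.71, DSP 3.50, DSC2 3.21, JUP 2.57 and PKP3 1.19 on the log2 scale.

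In the hemidesmosome and laminin-332 list, 6 of 11 tested genes were called higher in FaDu, 1 was called higher in PANC-1 and 4 were not called. With each line counted once these were 5 and 2, as DST changed sides. Of the laminin-332 chains, LAMB3 was higher in FaDu by 9.36 and LAMA3 by 5.23 on the log2 scale. COL17A1, the transmembrane collagen of the hemidesmosome, had log2 signals of 10.20 and 10.20 in FaDu and 2.51 and 3.11 in PANC-1, at least 63.6-fold higher in FaDu. The integrin beta 4 gene ITGB4 was higher by 2.75, while its partner ITGA6 (-0.32), and ITGA3 (-0.12), ITGB1 (0.31) and PLEC (0.60), were not called. The tetraspanin gene CD151 went the other way, with log2 signals of 14.63 and 14.60 in FaDu and 16.66 and 16.68 in PANC-1. The median log2 difference of this list was 2.75, and it was 0.58 when the probes of a gene were averaged, since DST, whose probes point in opposite directions, then fell below 0.

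DST encodes dystonin, a plakin made as an epithelial form of the hemidesmosome, BPAG1-e, and as long forms of muscle and nerve. Its 6 probes lie on the minus strand of chromosome 6 (hg19). The 2 probes designed on transcript variant 1e, at chr6:56479979-56480038 and chr6:56480315-56480374, had log2 differences of 3.21 and 2.83, with FaDu above PANC-1 in every channel. The other 4 probes had differences of -1.24 (transcript variant 2, chr6:56765240-56765299), -1.80 (chr6:56535434-56535493), -2.28 (chr6:56468851-56468910) and -2.60 (transcript variant 1eA, chr6:56323535-56323594), with PANC-1 above FaDu in every channel. The probe of variant 1e chosen by brightness had log2 signals of 10.43 and 10.31 in FaDu and 7.28 and 7.04 in PANC-1. With each line counted once the brightest probe was another, and DST was then called higher in PANC-1, with a log2 difference of -2.57 (adjusted p = 0.00209, limma). The files do not say in which exon a probe lies.

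**Figure D3:**
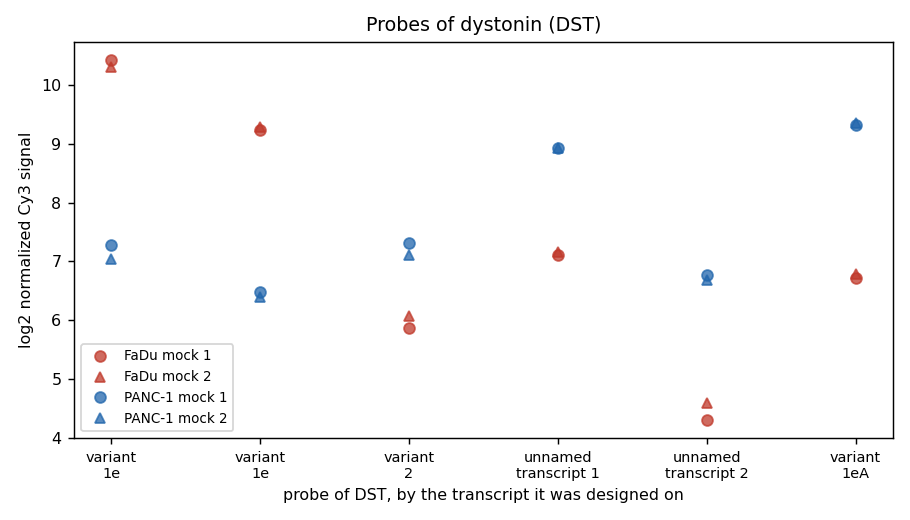
Log2 normalized Cy3 signal of the 6 probes of DST in each mock channel of FaDu (red) and PANC-1 (blue), labelled by the transcript on which the array files say the probe was designed. The 2 probes of variant 1e are higher in FaDu by 3.21 and 2.83, and the other 4 are higher in PANC-1.

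Genes of epithelial junctions and epithelial splicing were called higher in FaDu in 18 of 27 cases and higher in PANC-1 in 2, with a median log2 difference of 2.11. With each line counted once these were 16 and 2. E-cadherin (CDH1) had log2 signals of 12.65 and 12.65 in FaDu and 6.99 and 6.98 in PANC-1, a 50.6-fold difference, and was above background in both lines. EPCAM, an adhesion molecule of simple epithelia, gave 13.19 and 13.14 against 9.51 and 9.54. P-cadherin (CDH3), typical of basal cells, gave 13.55 and 13.49 against 7.98 and 8.06. All 3 adhesion genes were lower but still measured in PANC-1. The splicing factor gene ESRP1 was at background in PANC-1 (at least 301-fold), and its relative ESRP2 was measured in both lines (2.11 on the log2 scale). RAB25 (at least 199-fold), the polarity gene CRB3 (at least 137-fold) and MARVELD3 (at least 9.72-fold) were likewise at background in PANC-1. The membrane protease gene PRSS8 was at least 1030-fold higher in FaDu, its relative ST14 15.3-fold and their inhibitor SPINT1 25.1-fold. Claudins did not move as one: CLDN7 was higher in FaDu (2.48), CLDN4 (-1.84) and CLDN3 (-2.74) were higher in PANC-1, and CLDN1 (-0.23) was not called.

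Genes of the mesenchymal list were called higher in PANC-1 in 15 of 28 cases and higher in FaDu in 8, and the median log2 difference was -1.17. ZEB1, a repressor of E-cadherin, had log2 signals of 4.88 and 4.35 in FaDu and 10.71 and 10.72 in PANC-1, with 1 of the 2 FaDu channels above background. SPARC, a matrix glycoprotein gene, had 2.10 and 3.02 against 11.53 and 11.44, at least 150-fold higher in PANC-1. The methyltransferase gene NNMT had 2.16 and 2.17 against 9.05 and 9.14, at least 28.6-fold. In each of these PANC-1 stood well above FaDu. S100A4 (-6.75 on the log2 scale), WNT5B (35.1-fold), TGFBI (9.79-fold), EMP3 (9.78-fold), the gelatinase gene MMP2 (at least 20.7-fold), SNAI1 (3.3-fold), N-cadherin (CDH2, 2.37-fold) and AXL (2.14-fold) were also higher in PANC-1. The other CDH2 probe, above background in both lines, had a log2 difference of only -0.36, short of the fold needed for a call. The list was split at its transcription factors: SNAI2 had log2 signals of 8.70 and 8.83 in FaDu and 3.90 and 4.31 in PANC-1 (at least 22.8-fold higher in FaDu) and TWIST1 7.47 and 7.59 against 3.26 and 3.88 (at least 10-fold). TWIST1 was read from 1 of its 4 probes, as the other 3 were above background in no channel. TWIST2 (1.87), tenascin C (TNC, 2.14), CAV1 (1.27), TAGLN (1.43) and LOX (1.24) were higher in FaDu as well. ZEB2 and FN1 passed the filter in neither line. SNAI2 is also made by normal basal keratinocytes.

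Promoters of genes that moved together in these lists are shown with 2 short motifs, because ZEB1 and the related SNAI factors bind E-boxes of the letters CAGGTG and many keratinocyte genes carry AP-1 elements of the letters TGANTCA. Sequences are the 250 bases before the start of each gene, read 5′ to 3′ on the gene's strand, from RefSeq (GRCh38.p14). Capitals mark matches on either strand, which are CAGGTG or CACCTG in the first 3 and TGANTCA in the last 2. The genes were picked from those higher in FaDu that hold a match.
CRB3 (chr19:6464021-6464270, plus strand): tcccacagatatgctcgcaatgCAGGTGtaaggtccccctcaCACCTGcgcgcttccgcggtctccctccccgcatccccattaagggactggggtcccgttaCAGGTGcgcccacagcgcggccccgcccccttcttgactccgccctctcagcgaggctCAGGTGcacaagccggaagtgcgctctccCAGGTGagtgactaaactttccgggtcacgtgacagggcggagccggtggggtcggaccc
RAB25 (chr1:156060910-156061159, plus strand): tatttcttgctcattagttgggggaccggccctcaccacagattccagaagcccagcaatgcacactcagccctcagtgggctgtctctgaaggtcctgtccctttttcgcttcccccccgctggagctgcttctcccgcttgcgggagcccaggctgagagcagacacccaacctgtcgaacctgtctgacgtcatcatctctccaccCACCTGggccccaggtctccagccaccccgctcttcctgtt
KRT5 (chr12:52520395-52520644, minus strand): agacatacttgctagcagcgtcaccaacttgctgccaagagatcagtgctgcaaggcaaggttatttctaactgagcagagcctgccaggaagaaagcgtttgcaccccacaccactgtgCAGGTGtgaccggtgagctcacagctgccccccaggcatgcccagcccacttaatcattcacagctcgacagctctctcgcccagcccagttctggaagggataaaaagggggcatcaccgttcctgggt
SERPINB5 (chr18:63476708-63476957, plus strand): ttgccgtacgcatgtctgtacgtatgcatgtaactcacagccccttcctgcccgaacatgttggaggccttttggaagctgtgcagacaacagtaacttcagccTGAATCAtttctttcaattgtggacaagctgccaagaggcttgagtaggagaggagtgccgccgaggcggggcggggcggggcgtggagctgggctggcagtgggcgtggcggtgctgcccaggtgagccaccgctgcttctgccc
LAMA3 (chr18:23872770-23873019, plus strand): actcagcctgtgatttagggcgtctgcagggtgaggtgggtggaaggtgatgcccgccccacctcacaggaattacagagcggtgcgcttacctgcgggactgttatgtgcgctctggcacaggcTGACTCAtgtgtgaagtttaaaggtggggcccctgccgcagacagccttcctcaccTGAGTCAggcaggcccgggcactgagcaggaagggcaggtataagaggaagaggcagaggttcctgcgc
The CRB3 promoter held 5 matches to the E-box, with first bases 228, 208, 147, 89 and 60 bases before the start. RAB25 and KRT5 held 1 each. SERPINB5 and LAMA3 held 1 E-box each as well, which was not marked, since their capitals are for AP-1. The E-box was found in 17.5% of 27305 promoters of this length. Counts by list take every member with a promoter, whether or not it passed the filter. The E-box was in 5 of the 16 promoters found for the epithelial junction list and 15 of 36 for the cornified envelope list. For the desmosome list it was in 4 of 10, and for the hemidesmosome and laminin-332 list in 3 of 6. It was in 2 of 13 for the squamous transcription factors, 2 of 11 for the stratified keratins and 3 of 25 for the mesenchymal list. AP-1 was found in 6.60% of all promoters, in 14 of the 36 of the cornified envelope list and in 1 of the 16 of the junction list. For the desmosome list it was in 1 of 10, and for the hemidesmosome and laminin-332 list in 1 of 6. None of the squamous transcription factor, stratified keratin and mesenchymal lists held it. Another motif counted, TATAAA, was in 11.1% of all promoters and in 15 of the 36 of the cornified envelope list, as many as the E-box. It was in 4 of 11 for the stratified keratins, 3 of 13 for the squamous transcription factors and 2 of 6 for the hemidesmosome and laminin-332 list. For the mesenchymal list it was in 3 of 25, and the desmosome and junction lists did not hold it. These counts describe letters in a window, the lists were not chosen independently of the signals, and no binding was measured here.

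Transcription factors of pancreas and foregut endoderm were called higher in PANC-1 in 10 of 17 cases and in FaDu in 3. The median log2 difference was -1.72, or -1.05 where a bound took the place of each difference from background. Of the 17, 6 were at background in both FaDu channels and passed the filter through PANC-1 alone, and 1 the reverse. The 2 widest were NKX6-2, better known from the nervous system, with log2 signals of 3.71 and 2.54 in FaDu and 12.49 and 12.56 in PANC-1 (at least 309-fold), and GATA5, a GATA factor of heart and gut endoderm, with 2.52 and 2.05 against 11.49 and 11.51 (at least 151-fold). FOXA2, a pioneer factor of endoderm, gave 7.30 and 7.28 against 11.41 and 11.42, a 17.4-fold difference. SOX9, a factor of duct cells, gave 5.89 and 6.26 against 8.54 and 8.68, a 5.77-fold difference. All 4 were higher in both PANC-1 channels than in either FaDu channel. GATA4 (-1.72), SOX17 (-1.12), the intestinal factor gene CDX2 (at least 5.17-fold) and NR5A2 (at least 3.49-fold) were higher in PANC-1 as well. The reverse was seen for FOXA1, with log2 signals of 9.20 and 9.18 in FaDu and 2.91 and 3.02 in PANC-1 (at least 31.6-fold higher in FaDu), for MNX1 (2.63) and for GATA6 (2.10). The members that passed the filter in neither line included PDX1, HNF4A, HNF4G, FOXA3, ONECUT1, PTF1A, NKX6-1, RBPJL and PROX1.

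Products of pancreatic duct and gut epithelium did not divide by tissue. Of 20 tested, 6 were called higher in each line and 8 were not called, and the median log2 difference was -0.45. Counting each line once, 5 were higher in FaDu and 7 in PANC-1. TFF3, a secreted trefoil peptide gene, had log2 signals of 2.15 and 2.16 in FaDu and 10.01 and 10.10 in PANC-1, at least 55.5-fold higher in PANC-1. AGR2, a disulfide isomerase gene of mucus-making cells, gave 9.29 and 9.35 against 12.76 and 12.76, and MUC1 gave 8.41 and 8.48 against 10.29 and 10.31. These gut products were higher in PANC-1, whereas CA2 had 12.51 and 12.47 in FaDu against 4.77 and 4.90 in PANC-1, S100P 14.22 and 14.25 against 10.96 and 11.01 and MUC20 was at least 27.4-fold higher in FaDu. Simple keratins were measured in every channel. KRT7 was higher in FaDu, with log2 signals of 13.35 and 13.39 against 11.52 and 11.55, and KRT19 (15.70 and 15.73 against 17.15 and 17.20), KRT18 (15.85 and 15.78 against 16.998 and 16.93) and KRT8 (12.45 and 12.51 against 14.29 and 14.15) were higher in PANC-1. Another KRT8 probe, designed on transcript variant 4, gave a difference of 0.30 in the other direction.

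Most markers of the other pancreatic cells did not pass the filter, nor did most genes over all, of which 20346 of 43311 passed. Of 19 acinar genes with a probe, 6 passed the filter, and of these 3 were called higher in FaDu and 2 in PANC-1, or 2 and 2 with each line counted once. CEL, a bile salt lipase gene, had log2 signals of 9.19 and 9.03 in FaDu and 6.06 and 6.16 in PANC-1. Of 35 endocrine and neuroendocrine genes 15 passed, with 7 called higher in FaDu and 4 in PANC-1. UCHL1 (4.74), PAX6 (3.54) and ISL1 (at least 3.81-fold) were higher in FaDu, and the neuronal tubulin gene TUBB3 (-3.33) and SSTR2 (at least 2.29-fold) were higher in PANC-1. CHGA, the defining chromogranin, reached 4.96 and 4.80 in FaDu and was at background in PANC-1, at 2.39 and 2.40.

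**Figure D4:**
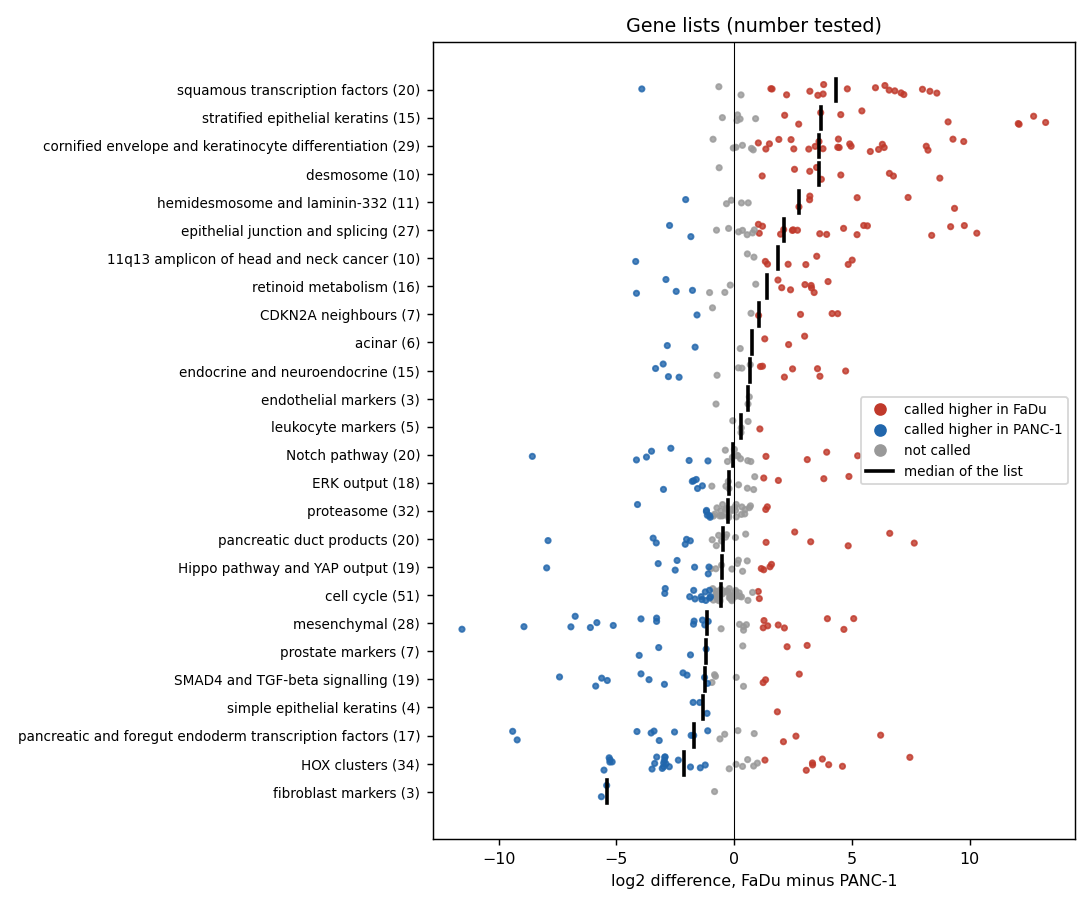
Log2 differences (FaDu minus PANC-1) of every tested gene of each list, with the number tested, coloured by its call and with a bar at the list's median, sorted by that median. Squamous transcription factors have the highest median, 4.31, and the proteasome (-0.28) and Notch (-0.03) lists have medians near 0.

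HOX genes, which record position along the body axis, divided by cluster. All 9 tested HOXB genes and all 9 tested HOXC genes were called higher in PANC-1, with log2 differences from -5.53 to -1.43 and from -5.28 to -1.23. HOXB6 had log2 signals of 8.95 and 8.91 in FaDu and 14.11 and 14.10 in PANC-1, a 36.2-fold difference. HOXC13 had 5.07 and 5.32 against 10.46 and 10.48, a 38.7-fold difference. HOXB9 lost its call with each line counted once (adjusted p = 0.0619, limma). In neither gene did the lines overlap, and both lines were above background. In the HOXD cluster 5 of 6 tested genes were higher in FaDu, HOXD8 (at least 6.51-fold), HOXD9 (at least 5.26-fold), HOXD10 (4.02), HOXD11 (at least 4.27-fold) and HOXD13 (at least 1.96-fold), and HOXD3 was at least 3.76-fold higher in PANC-1. Within the HOXA cluster, HOXA7 had log2 signals of 10.67 and 10.64 in FaDu and 3.78 and 2.60 in PANC-1 (at least 87.1-fold higher in FaDu), and its neighbours depended on the probe. The brightest probes of HOXA9 (0.83) and HOXA10 (0.08) gave no call, but 3 other HOXA9 probes, with log2 differences of 5.58, 6.80 and 5.03, and the other HOXA10 probe, with 5.11, were at background in PANC-1 and well above it in FaDu. HOXA5 (0.99) was not called. HOXA4 and HOXA6 were higher in FaDu and HOXA13 in PANC-1, but HOXA6 lost its call with each line counted once. Over the 34 tested HOX genes 8 were higher in FaDu and 20 in PANC-1, or 8 and 19 with each line counted once, and the median log2 difference was -2.11.

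**Figure D5:**
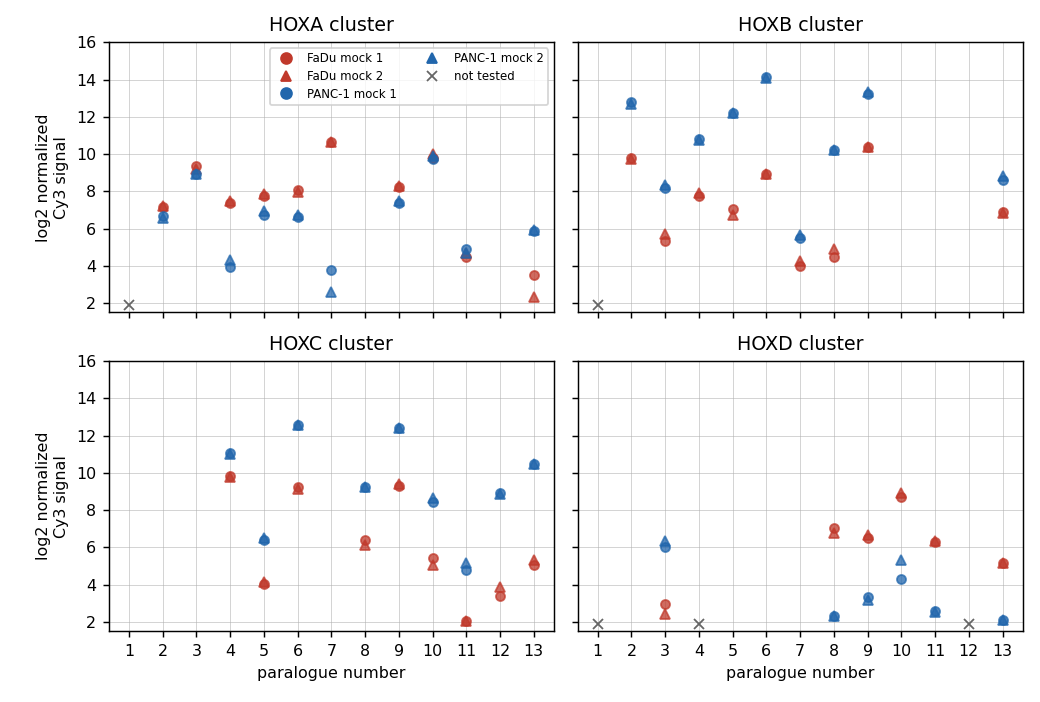
Log2 normalized Cy3 signal of the tested HOX genes in each mock channel of FaDu (red) and PANC-1 (blue), by cluster and paralogue number; crosses mark genes that passed the filter in neither line. HOXB and HOXC genes are higher in PANC-1 throughout, and HOXD8 to HOXD13 are higher in FaDu where tested.

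Several genes known as tumour suppressors or as parts of amplified regions were far apart. SMAD4, the common mediator of TGF-beta signals, had log2 signals of 2.29 and 2.29 in FaDu and 9.66 and 9.75 in PANC-1, at least 43.6-fold higher in PANC-1. Its other probe, at chr18:48605060-48605119 (hg19), was at background in both FaDu channels as well, at 2.33 and 2.31, against 6.65 and 6.66 in PANC-1. No FaDu channel carried SMAD4 signal above background at either probe. Of 19 tested genes of this pathway 11 were called higher in PANC-1 and 3 in FaDu, with a median log2 difference of -1.25. Of the 19, 7 were at background in both FaDu channels and passed the filter through PANC-1 alone. Among those above background in all 4 channels the median was -0.35. The inhibitory SMAD genes SMAD7 (6.15 and 6.23 against 8.35 and 8.38) and SMAD6 (at least 30.1-fold), the latency protein genes LTBP2 (at least 14.7-fold) and LTBP1 (-3.61) and the ligand gene TGFB2 (at least 4.1-fold) were higher in PANC-1. The decoy receptor gene BAMBI (2.77) and the repressor gene SKIL (1.34) were higher in FaDu, and SMAD2 (0.09), TGFBR2 (-0.79) and TGFB1 (0.40) were not called.

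Genes around CDKN2A on chromosome 9p21 (hg19) changed side from one probe to the next, and 4 of 7 tested were called higher in FaDu and 1 in PANC-1, or 3 and 1 with each line counted once. MTAP, a salvage enzyme gene often lost together with CDKN2A, is transcribed towards CDKN2A and has 3 probes. The probe nearest its start, spanning chr9:21802766-21815476, had log2 signals of 8.01 and 8.07 in FaDu and 8.94 and 8.98 in PANC-1. The other 2, at chr9:21837969-21854648 and chr9:21865830-21865889, had 8.85 and 8.95 and 8.78 and 8.70 in FaDu and were at background in PANC-1, at 2.47 and 2.51 and at 2.25 and 2.25. PANC-1 thus carried signal at the start of MTAP and none above background further along the gene. CDKN2A, which encodes p16 and p14ARF, had log2 signals of 12.71 and 12.68 in FaDu and 8.20 and 8.39 in PANC-1 at chr9:21968039-21968098, a 21.1-fold difference with PANC-1 still above background. At its other probe, chr9:21970901-21970960, the signals were 6.36 and 6.51 in FaDu and 2.29 and 2.29, at background, in PANC-1. CDKN2B, at chr9:22008979-22009038, was also at background in PANC-1 and at least 4.6-fold higher in FaDu. On either side, KLHL9 (0.72) was measured in both lines and not called, and DMRTA1 was at least 2.98-fold higher in PANC-1. DNA copy number was not measured here.

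In the 11q13 region, which is often amplified in head and neck cancer, 7 of 10 tested genes were higher in FaDu and the median log2 difference was 1.86. PPFIA1, a liprin gene, had log2 signals of 12.87 and 12.93 in FaDu and 9.35 and 9.43 in PANC-1. CTTN, the actin-binding protein cortactin, gave 15.78 and 15.60 against 14.27 and 14.28, and FADD, a death receptor adaptor gene, gave 14.44 and 14.21 against 12.94 and 13.06. These neighbours were higher in FaDu, as were SHANK2 (5.02), ORAOV1 (2.29) and ANO1 (at least 11.2-fold). Cyclin D1 (CCND1), the best known gene of the region, gave 10.76 and 10.24 against 9.91 and 9.96 and was not called, and MYEOV, in the same region, was 18.1-fold higher in PANC-1.

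Of 18 tested targets and brakes of the ERK pathway, 4 were higher in FaDu, 6 were higher in PANC-1 and 8 were not called, against 18.9% and 21.0% of all genes, and the median log2 difference was -0.23. The immediate early gene EGR1 had log2 signals of 13.15 and 13.11 in FaDu and 8.28 and 8.23 in PANC-1, and the phosphatase genes DUSP4 (3.81) and DUSP6 (1.88) were higher in FaDu too. Sprouty family brakes went the other way, SPRY1 with 7.13 and 7.27 in FaDu against 10.19 and 10.21 in PANC-1, SPRY2 (-1.72) and SPRY4 (-1.61). Among Hippo pathway genes and YAP targets 4 of 19 were higher in FaDu and 7 in PANC-1, with a median of -0.53. The LIM protein gene AJUBA had log2 signals of 2.36 and 2.35 in FaDu and 10.32 and 10.30 in PANC-1, at least 66.4-fold higher in PANC-1, and NF2, which encodes merlin, had 11.24 and 11.25 against 14.45 and 14.49. YAP1 (1.16) was higher in FaDu, its paralogue WWTR1 (-1.07) and the target genes CYR61 (-2.50) and CTGF (-1.68) in PANC-1. FOXQ1, the gene targeted by siRNA in the Cy5 channels of the PANC-1 arrays, had mock log2 signals of 10.19 and 10.25 in FaDu and 12.28 and 12.30 in PANC-1, a 4.19-fold difference that lost its call when each line was counted once.

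The tested cell cycle and proteasome genes were all above background in all 4 channels. Of all genes measured so, 14.6% were called higher in FaDu and 16.4% higher in PANC-1. Of 51 cell cycle genes 37 were not called, 12 were higher in PANC-1 and 2 in FaDu, and the median log2 difference was -0.55. The 12 became 10 with each line counted once. The proliferation marker MKI67 had log2 signals of 9.68 and 9.61 in FaDu and 9.87 and 9.82 in PANC-1 and was not called. The nucleotide synthesis genes RRM2 (6.42 and 6.88 against 9.60 and 9.58) and TYMS (10.71 and 10.82 against 13.64 and 13.73) were the widest, both higher in PANC-1. Of 32 proteasome genes 24 were not called, 6 were higher in PANC-1 and 2 in FaDu, with a median of -0.28. One stood apart, the ATPase subunit gene PSMC4, with log2 signals of 12.04 and 11.999 in FaDu and 16.12 and 16.12 in PANC-1, while all the other subunits lay between -1.18 and 1.41. PSMC4 was read by a single probe.

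Markers of cells that a pure line should lack were counted beside the 20346 of 43311 genes that passed the filter. Prostate markers passed in 7 of 11 cases, with 2 called higher in FaDu and 4 in PANC-1. Of 11 leukocyte markers with a probe 5 passed the filter and only CD14 (8.07 and 8.10 in FaDu against 7.16 and 6.83 in PANC-1) was called, a call lost with each line counted once, and of 10 endothelial markers 3 passed, with log2 differences between -0.77 and 0.65, none past the fold needed for a call. Of 10 fibroblast markers 3 passed, and COL1A1 (5.10 and 5.48 in FaDu against 10.67 and 10.73 in PANC-1) and THY1 (at least 12.7-fold) were higher in PANC-1, while COL1A2, COL3A1, DCN, LUM and PDGFRA passed in neither line. The summed signal of the fibroblast markers COL1A1, COL3A1, DCN, LUM and PDGFRB was 70.7 to 108 in the FaDu channels and 1670 to 1740 in the PANC-1 channels on the linear scale, and its part in the mesenchymal differences was not tested.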

How the data were processed

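Two-colour Agilent arrays of 1 design were used, with mock RNA in Cy3. Per the file headers, the authors' processed Cy3 and Cy5 intensity came from Agilent Feature Extraction 10.7.3.1 (hg19 annotation): background-subtracted, spatially detrended and dye-normalised within an array, so that a Cy3 value also depends on the Cy5 channel beside it. The raw mean and background intensity of each spot was deposited too. The authors' processed value table was not used.

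Samples were grouped by cell line label. Control spots and outlier spots were left out, log2 processed Cy3 signals were quantile-normalised over the 4 arrays in R 4.3.3, spots of a probe were averaged, and the probe with the highest mean signal stood for a gene. Genes well above background in both channels of at least 1 line were kept, 20346 of 43311. FaDu and PANC-1 were compared with limma 3.58.1 (trended eBayes, Benjamini-Hochberg), and called genes had an adjusted p under 0.05 and a log2 difference of at least 1. The largest adjusted p among the genes called and named in the text was 0.00239, and the median SE of their differences was 0.097. In 16506 genes of simulated channels, 50 genes were changed by each size. Of those changed by -1.5 and 1.5, 86% and 72% were called, and of those changed by -3 and 3, 100% and 98%. Of the unchanged genes 1 was called. The simulated noise was drawn from the spread between the 2 channels of a line. Variation between cultures or slide rows therefore did not enter these counts. An "at least" fold sets the bright line's mean against the dim line's mean of, per array, the higher of the dim probe's own signal and the lowest signal among probes well above background. No spot was saturated.

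Named genes were the members of 26 gene lists, the 12 widest differences in each direction among genes measured in all 4 channels, the 10 widest bounds in each direction, and FOXQ1; predicted transcripts without a gene symbol, XIST and Y-linked genes were left out of the ranked sets. The members and lists were chosen with earlier results of these data known. The values of some members are not reported here. A list was described by its counts and median, with no test of the list. PRSS2, AMY2A, AMY2B, CD68 and LYZ had no probe under these names. The number of arrays limits the precision.

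Alternatives were another background correction and 2 other normalisations, other filters and probe rules, all 8 mock channels with and without the slide row, the Cy5 channel, a larger fold threshold, a test against a fold of 2, and leaving out each channel. After the data had been seen, a fit with each line counted once and a count by fold alone were added.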

Additional observations from a re-analysis of the deposited data

How the results depend on the processing

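The calls higher in FaDu and in PANC-1 numbered 2147 and 2327 with normexp on the raw intensities, whose offset of 50 draws dim genes together, 2257 and 2520 with loess and Aquantile normalisation, which starts from the same correction, 2415 and 2709 among genes above background in all 4 channels, and 1822 and 1969 at a log2 threshold of 2. The remaining alternatives kept both counts within 1.5 times: 3756 to 3885 and 4081 to 4322 when 1 mock channel was left out, 3819 and 4234 with all 8 mock channels and the slide row as a term, 2618 and 2859 in the Cy5 channel, where the RNA is that of transfected cells, and 3871 and 4325 by fold alone. No gene called in 1 direction was called in the other by a change of normalisation, and the split of calls between the lines stayed near 47.4% higher in FaDu, at 46.6% to 48.8%.

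Of 26 list medians 9 took both signs over the alternatives, among them those of the cell cycle (-0.67 to 0.19), duct product (-0.90 to 0.08), Hippo (-0.85 to 0.02), ERK (-0.29 to 0.03), Notch (-0.15 to 0.13), acinar (-2.87 to 1.63) and endothelial (-0.02 to 1.73) lists. The median of the squamous transcription factors lay between 1.56 and 4.71, that of the stratified keratins between 0.20 and 3.89, that of the cornified envelope list between 1.19 and 3.82, that of the desmosome list between 2.37 and 3.69, that of the pancreas and foregut factors between -1.82 and -0.13, that of the simple keratins between -1.39 and -0.29 and that of the HOX list between -2.82 and -0.67. Without a filter the fibroblast median became 0.0029 and the prostate median 0.37, from -1.19, as most of their genes are at background. DST turned to -0.31 with probes averaged, to -1.24 with the probe of the smallest difference, to -2.57 when the brightest probe was picked over all 8 channels, also with each line counted once, and to -2.76 with the slide row. MTAP became 3.99 and NOTCH2 1.01 with probes averaged, CRABP2 1.06 and KRT8 0.30 with the probe of the smallest difference. FOXQ1 became 0.023 in the Cy5 channel, where PANC-1 carried FOXQ1 siRNA. Of 303 called genes that were listed or named, 16 lost their calls with each line counted once, among them CD14, CLDN7, FOXQ1, GRHL3, HOXA6 and HOXB9, and 13 with the slide row as a term, among them CD14, CLDN7, NRARP and PKP3.

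No paired analysis was possible because the replicate numbers were given in accession order and the 2 lines share no culture or array. The arrays were on 1 slide, and no slide block was fitted. The lowest signal above background, 18.2 to 20.1 on the linear scale, limits every "at least" fold, and 45.9% of gene spots at most passed it.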

Other observations

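In the Notch pathway, through which neighbouring cells settle their fates, 4 of 20 tested genes were called higher in FaDu and 7 in PANC-1, against 18.9% and 21.0% of all genes, with a median log2 difference of -0.03. Among ligands, DLL1 had log2 signals of 9.55 and 9.55 in FaDu and 4.16 and 4.45 in PANC-1, and DLL3 5.28 and 5.79 against 14.09 and 14.11, so the lines were far apart in opposite directions, while JAG1 (0.58) and JAG2 (0.01) were not called. Among receptors, NOTCH3 was higher in FaDu (3.93) and NOTCH4 in PANC-1 (-4.15), with NOTCH1 (0.71) and NOTCH2 (-0.07) not called, although another NOTCH2 probe had a difference of 2.09. Of the fringe glycosyltransferases that tune ligand choice, MFNG was higher in FaDu (3.11), LFNG in PANC-1 (-3.51) and RFNG (0.13) was not called. The other LFNG probe, above background in both lines, had a difference of only -0.46. The target genes HES2 (-3.72), HEY1 (-1.91) and HES4 (-1.11) were higher in PANC-1 and NRARP (1.35) in FaDu.

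Retinoid metabolism, which holds back cornification in squamous epithelium, had 8 of 16 tested genes higher in FaDu and 4 higher in PANC-1. The retinaldehyde dehydrogenase gene ALDH1A3 had log2 signals of 14.51 and 14.29 in FaDu and 11.11 and 11.14 in PANC-1, and the retinoic acid hydroxylase gene CYP26A1 9.57 and 9.55 against 6.18 and 6.35. The retinol receptor gene STRA6 (3.01), the storage enzyme gene LRAT (at least 2.78-fold) and the receptor gene RARG (2.02) were higher in FaDu too. The 2 retinoic acid-binding protein genes went opposite ways, CRABP1 by 3.99 and CRABP2 by -4.15. The other CRABP2 probe, designed on transcript variant 2, had log2 signals of 6.04 and 6.09 in FaDu and 4.77 and 5.23 in PANC-1, the other direction.

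Of 74 called genes among those listed or named that had more than 1 probe above background, 4 had probes of opposite sign: ANXA4, CRABP2, DST and KRT8.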
